A study of Homo sapiens with 28 samples.

Results

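The genes described here are 28 members of cholesterol and fatty acid synthesis, out of 62703 genes in each of the deposited count tables of the human colorectal cancer (CRC) cell lines MDST8 and LoVo. They were chosen by name, as genes of the mevalonate steps, of the steps from squalene to cholesterol, of fatty acid synthesis, and of the SREBP system that controls them, by a rule that uses no measured value, although earlier results of these data were known when the list was drawn up. All 28 were found in both tables and all 28 passed the filter on low counts in both lines. RNA-seq covered 8 groups of 3 libraries. MDST8, a mesenchymal CRC line, gave WT cells and 5 single-cell-derived TWIST1 KO clones made by CRISPR-Cas9 editing. TWIST1 is a transcription factor of epithelial-mesenchymal transition. The clones are named KO clone 1.1, 2.2, 3.2, 3.5 and 3.6, and each group of KO libraries therefore stands for 1 clone. Clones 3.2, 3.5 and 3.6 share the label TG3, while clone 1.1 is labelled TG1 and clone 2.2 is labelled TG2. The 5 clones thus carry 3 labels, whose meaning is not given. LoVo, an epithelial CRC line, gave libraries labelled shRNA control and libraries labelled TWIST1 shRNA, the latter meant to carry a hairpin against TWIST1. The sample titles call the former only control cells, and the paper set its LoVo knockdown against wild-type cells. Whether the control carries a hairpin is therefore not known. No drug, diet or lipid treatment is named in the labels of any group. TWIST1 ChIP-seq added 1 peak list for each line.

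Cholesterol is made from acetyl-CoA through mevalonate, the isoprenoid diphosphates and squalene, and then through a series of sterol intermediates. Transcription of these enzymes is driven by SREBP2, the product of SREBF2, while SREBP1, the product of SREBF1, acts more on fatty acid synthesis. When sterols are plentiful, INSIG1 holds the SREBP precursors in the endoplasmic reticulum, and INSIG1 is itself an SREBP target, so that its mRNA is commonly read as a gauge of the system. Oxysterols at the same time activate LXR, whose targets include cholesterol efflux pumps, SREBF1 and MYLIP, the ubiquitin ligase that removes the LDL receptor.

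The promoters of these genes are known to hold sterol response elements beside CCAAT boxes, the binding letters of NF-Y, which works together with SREBP. RefSeq promoter windows (GRCh38.p14) were found for 24 of the 28 members, as 33 windows, and not for ACAT2, FASN, FDFT1 and SQLE. Within 250 bases before the start, on either strand, the letters CCAAT were present in 19 of 24 members (79.2%) and in 37.0% of all 27305 genes with a window. The GC box GGGCGG was found in 23 of 24 members (95.8%), against 46.2% of all genes. The letters TCACNCCAC, a form of the sterol response element, occurred in 1 member, SREBF2, and in 1.09% of all genes. The E-box CATCTG was found in 2 members, FADS2 and LSS (8.33%), and in 14.6% of all genes. All 28 members passed the filter on low counts, whereas the 27305 genes were taken without it. No share was computed for expressed genes alone. A match describes the letters only. The 200 bases before the start of 7 members are given here because these genes carry most of the results below, 6 of them being called in at least 4 clones, and SREBF2 encodes the regulator. Capitals mark CCAAT or its reverse complement ATTGG and, in SREBF2, also TCACCCCAC, which does not overlap the CCAAT box.
SREBF2, chr22:41832905-41833104, plus strand: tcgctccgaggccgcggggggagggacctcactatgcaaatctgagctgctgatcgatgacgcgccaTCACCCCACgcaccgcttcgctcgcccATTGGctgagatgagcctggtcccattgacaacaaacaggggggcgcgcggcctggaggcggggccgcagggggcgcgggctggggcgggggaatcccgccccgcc
INSIG1, chr7:155297678-155297877, plus strand: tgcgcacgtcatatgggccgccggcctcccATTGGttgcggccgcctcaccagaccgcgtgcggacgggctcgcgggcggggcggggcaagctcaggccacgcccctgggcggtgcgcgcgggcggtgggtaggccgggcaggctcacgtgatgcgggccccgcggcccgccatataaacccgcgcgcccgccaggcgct
HMGCS1, chr5:43313413-43313612, minus strand: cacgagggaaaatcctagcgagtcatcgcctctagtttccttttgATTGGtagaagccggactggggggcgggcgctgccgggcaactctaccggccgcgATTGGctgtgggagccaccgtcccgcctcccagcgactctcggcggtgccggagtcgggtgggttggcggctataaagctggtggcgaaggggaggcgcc
MVD, chr16:88663092-88663291, minus strand: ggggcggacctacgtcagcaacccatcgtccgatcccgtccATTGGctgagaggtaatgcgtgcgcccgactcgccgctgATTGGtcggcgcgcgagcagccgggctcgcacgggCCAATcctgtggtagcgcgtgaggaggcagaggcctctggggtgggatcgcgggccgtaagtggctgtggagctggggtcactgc
MSMO1, chr4:165327469-165327668, plus strand: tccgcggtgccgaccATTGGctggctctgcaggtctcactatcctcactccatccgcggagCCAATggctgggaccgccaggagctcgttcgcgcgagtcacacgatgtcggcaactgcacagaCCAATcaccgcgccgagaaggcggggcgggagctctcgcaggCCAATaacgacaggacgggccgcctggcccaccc
EBP, chrX:48521608-48521807, plus strand: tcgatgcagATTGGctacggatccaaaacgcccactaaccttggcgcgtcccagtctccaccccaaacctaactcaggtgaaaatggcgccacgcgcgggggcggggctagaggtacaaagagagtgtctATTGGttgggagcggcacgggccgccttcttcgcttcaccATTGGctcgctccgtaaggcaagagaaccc
DHCR7, chr11:71448394-71448593, minus strand: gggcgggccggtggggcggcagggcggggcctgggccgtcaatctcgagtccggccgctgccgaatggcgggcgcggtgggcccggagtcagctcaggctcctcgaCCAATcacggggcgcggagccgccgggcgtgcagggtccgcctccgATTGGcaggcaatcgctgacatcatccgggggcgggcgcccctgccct
HMGCS1 and DHCR7 each had 2 windows, and the one with more marked letters is printed. MSMO1 held 4 marked boxes in these 200 bases, MVD and EBP held 3 each, and INSIG1 held 1.

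Total counts per library ran from 16567606 to 22217009, which puts a count of 3 at 0.135 to 0.181 RPM (reads scaled to library size). TWIST1 was present in every KO library at 553 to 1195 counts, against 797 to 1034 in WT, and editing of the coding sequence need not remove the mRNA. In LoVo the TWIST1 counts ran against the labels, at 73, 89 and 93 under the TWIST1 shRNA label and 0 in each control library, so every LoVo direction below follows the labels only. Of 10 colon epithelial markers, 8 in the clones and 7 in WT stayed at 5 counts or fewer in MDST8, CDH1, EPCAM and CDX2 among them, whereas mesenchymal markers such as VIM and FN1 were abundant. Blood markers stayed at 5 counts or fewer in every group, and the summed endothelial markers at no more than 0.536 CPM. In LoVo all 10 epithelial markers were lower in the libraries labelled TWIST1 shRNA, where their summed level was 3929 to 4335 CPM against 8194 to 8464 CPM in the control. The 5 mesenchymal markers were lower there too. Mitochondrial reads made up 10.9, 6.24 and 5.47% of the libraries labelled TWIST1 shRNA, and 2.38 to 4.37% of all others. Their part in the LoVo results was not tested.

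In MDST8, the clones were compared with WT to see how these transcripts differ in them. The labels name no control clone, so loss of TWIST1, editing and single-cell cloning cannot be told apart here. Of the 18 mevalonate and sterol members, 15, 3, 12, 14 and 9 were called down in clones 1.1, 2.2, 3.2, 3.5 and 3.6, HMGCS1 at the entry in all but clone 2.2 and DHCR7 at the last step in all 5, by at most 2.54-fold (MSMO1 in clone 3.5), while the fatty acid synthesis genes and both SREBF genes stayed within the threshold in every clone, apart from FASN and SCD in clone 3.6. In clone 2.2 23 of 28 members had a lower mean than in WT, as did 7033 of 13706 genes tested, and 3 members passed the threshold. A gene was called when its log2 fold change went beyond 0.58 in either direction with an adjusted p (edgeR, quasi-likelihood F test) under 0.05. By this rule 16 of 28 members were called down in clone 1.1 (57.1%, where 7.49% of all genes tested were called down), 3 in clone 2.2 (10.7%, against 6.64%), 13 in clone 3.2 (46.4%, against 6.09%), 16 in clone 3.5 (57.1%, against 7.25%) and 12 in clone 3.6 (42.9%, against 11.7%). No member was called up in any clone, where 12%, 8.05%, 10.9%, 11.2% and 15.3% of all genes were called up in the same order, which gives 19.5%, 14.7%, 17%, 18.5% and 27% called in either direction. The median log2 fold change of the members was -0.61, -0.20, -0.56, -0.66 and -0.49, and that of all genes lay between -0.01 and 0.00. The 5 comparisons share the 3 WT libraries, so a deviation of WT would move all of them together. The labels do not say whether the libraries of a group came from separate cultures, and the p-values measure only the spread between them.

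**Figure D1:**
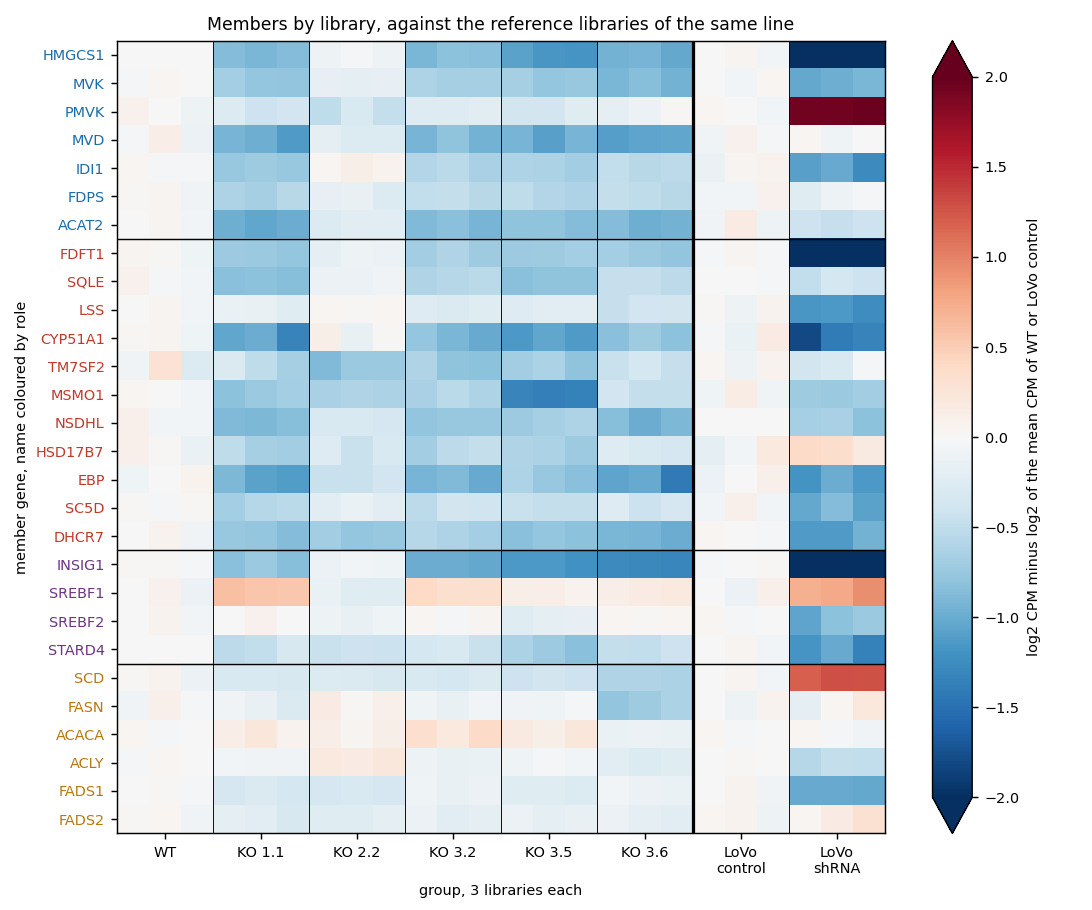
Members (rows, ordered and coloured by role) in each of the 24 libraries (columns), as log2 CPM minus the log2 of the mean CPM of WT for MDST8 and of the shRNA control for LoVo. Blue is lower and red higher, with the scale ending at -2 and 2. Most mevalonate and sterol rows are blue in the clones and palest in clone 2.2. There the mean was still below WT in 6 of 7 mevalonate and 10 of 11 sterol members. DHCR7 is clearly blue in all 5 clones, and of the fatty acid rows FASN and SCD are bluest in clone 3.6. INSIG1, HMGCS1 and FDFT1 pass the end of the scale in the LoVo libraries labelled TWIST1 shRNA.

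Of the 7 mevalonate members, 6, 0, 5, 5 and 4 were called down in clones 1.1, 2.2, 3.2, 3.5 and 3.6. HMGCS1, the HMG-CoA synthase (chr5:43287470-43313512 in hg38), had 219, 215 and 217 CPM (TMM-normalized counts scaled to library size) in WT libraries A, B and C. It had 119, 115 and 119 CPM in clone 1.1, 115, 123 and 121 CPM in clone 3.2, 103, 97.1 and 95.4 CPM in clone 3.5 and 113, 114 and 107 CPM in clone 3.6. All of these lay below WT by a wide margin, whereas clone 2.2 with 201, 212 and 202 CPM came just under it. The log2 fold change of HMGCS1 was -0.88 in clone 1.1 (SE 0.038, adjusted p = 2.39e-20) and -1.14 in clone 3.5 (SE 0.0388, adjusted p = 6.37e-23), and -0.08 in clone 2.2 (SE 0.0367, adjusted p = 0.0595). Exons of other annotated genes cover 37.7% of the exon bases of HMGCS1, and reads were counted without strand.

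MVK, mevalonate kinase (chr12:109573255-109598125), was at 88.03, 93.6 and 90.4 CPM in WT. Clone 2.2 had 81.03, 79.7 and 80.7 CPM, and the others had 56.4, 53.1 and 52.7 (clone 1.1), 59.1, 57.4 and 57.02 (3.2), 56.9, 53.03 and 53.6 (3.5) and 48.1, 50.02 and 47.1 CPM (3.6). Clone 3.6 was lowest, at -0.91 on the log2 scale (SE 0.0451). MVD (chr16:88651935-88663161) decarboxylates mevalonate diphosphate, and clone 2.2 was again the nearest to WT. Its WT libraries held 125, 139 and 118 CPM and those of clone 2.2 held 112, 105 and 105, above 66.6, 64.98 and 58.1 in clone 1.1, 66.8, 72.6 and 66.3 in clone 3.2, 66.7, 59.8 and 67.03 in clone 3.5 and 59.6, 61.1 and 62.2 CPM in clone 3.6. The log2 fold change of MVD reached -1.06 in clone 3.6 (SE 0.0554, adjusted p = 2.99e-18) and was -0.24 in clone 2.2 (SE 0.053).

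ACAT2 (chr6:159762045-159779112) joins acetyl-CoA units at the head of the pathway. WT held 214, 222 and 205 CPM, and the libraries of clone 2.2 were somewhat lower at 177, 185 and 182 CPM. The other clones had 108, 104 and 108 (1.1), 116, 119.6 and 113 (3.2), 123, 122 and 117 (3.5) and 118, 108 and 111 CPM (3.6), with log2 fold changes from -1.01 to -0.82. Part of ACAT2, 22.2% of its exon bases, lies over exons of other genes, mostly TCP1. IDI1, the isopentenyl diphosphate isomerase, was called down in clones 1.1, 3.2 and 3.5 at -0.75, -0.59 and -0.65, and all 3 libraries of clone 2.2 exceeded WT. FDPS, which makes farnesyl diphosphate, was called in clone 1.1 only (-0.61), though all 15 KO libraries lay under the WT libraries. PMVK, phosphomevalonate kinase, was not called in any clone, with log2 fold changes from -0.42 to -0.09.

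The steps from squalene to cholesterol count 11 members, of which 9, 3, 7, 9 and 5 were called down in the clones in the same order. FDFT1, squalene synthase, commits farnesyl diphosphate to sterols. It had 585, 574 and 535 CPM in WT and 499.7, 525 and 522 CPM in clone 2.2. In the other clones it had 341, 338 and 331 (1.1), 347, 372 and 347 (3.2), 341, 347 and 352 (3.5) and 354, 339 and 328 CPM (3.6). These 12 libraries sat close together and far under WT, with log2 fold changes between -0.75 and -0.67 (adjusted p from 1.13e-18 to 3.10e-17). SQLE, squalene epoxidase, was called in clones 1.1 (-0.83) and 3.5 (-0.82), and LSS, which closes the sterol rings, in no clone (-0.40 to 0.03).

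CYP51A1, lanosterol demethylase (chr7:92084987-92134803), had the lowest mean level per length of the members in WT. It had 25.1, 25.6 and 23.2 CPM in WT and 26.7, 22.2 and 24.9 CPM in clone 2.2, which overlapped. The remaining clones had 12.02, 12.4 and 9.79 (1.1), 14.5, 13.1 and 12.2 (3.2), 11.1, 11.9 and 11.3 (3.5) and 13.8, 15.1 and 13.95 CPM (3.6), all below both. The log2 fold change was -1.11 in clone 1.1 (SE 0.0895, adjusted p = 6.70e-13). Other annotated genes share 74.1% of its exon bases, and its level is uncertain for that reason.

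MSMO1, the sterol methyl oxidase (chr4:165327667-165343164), set clone 3.5 apart. WT had 253, 248 and 235 CPM and clone 3.5 had 97.8, 94.9 and 96.2 CPM, a log2 fold change of -1.35 (SE 0.0413, adjusted p = 3.38e-24). Clones 1.1, 2.2 and 3.2 were alike at 138, 146 and 153, then 156, 161 and 158, then 156, 169 and 160.1 CPM. In clone 3.6 the values 188, 176 and 175 CPM were also below WT, and the log2 fold change of -0.45 (SE 0.039) missed the threshold. MSMO1 was one of the 3 members called in clone 2.2, at -0.63.

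NSDHL, a sterol dehydrogenase of the demethylation steps (chrX:152830967-152869729), had 93.6, 84.5 and 84.8 CPM in WT and 70.7, 71.2 and 69.3 CPM in clone 2.2. The other clones held 47.6, 46.8 and 48.4 (1.1), 50.5, 52.04 and 51.9 (3.2), 52.95, 55.5 and 57.02 (3.5) and 48.7, 44.3 and 46.8 CPM (3.6), with log2 fold changes from -0.91 to -0.67. Clone 2.2 thus stood between WT and the rest. EBP, the sterol isomerase (chrX:48521799-48528716), showed the same arrangement at a lower level, with 29.9, 31.95 and 33.4 CPM in WT and 23.3, 23.3 and 24.4 CPM in clone 2.2. It had 16.97, 15.1 and 14.6 (1.1), 16.7, 17.3 and 15.8 (3.2), 20.6, 18.8 and 17.7 (3.5) and 15.3, 15.9 and 11.9 CPM (3.6) elsewhere, and its largest log2 fold change was -1.15 in clone 3.6 (SE 0.0837, adjusted p = 2.71e-14). A neighbouring transcript shares 36.4% of the exon bases of EBP.

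DHCR7 (chr11:71428193-71452868), which completes cholesterol by reducing 7-dehydrocholesterol, was the one member called down in all 5 clones. Its WT libraries had 537, 572 and 516 CPM. Clone 1.1 had 321, 316 and 296, clone 2.2 335, 318 and 321, clone 3.2 366, 352 and 337, clone 3.5 303, 316 and 306 and clone 3.6 288, 283 and 274 CPM. The highest of these 15 libraries was far under the lowest of WT, and clone 2.2 lay among the other clones here. The log2 fold changes ran from -0.94 (SE 0.0385) in clone 3.6 to -0.62 (SE 0.0381) in clone 3.2, and the adjusted p in clone 2.2 was 9.31e-18. TM7SF2 (chr11:65111845-65116384), a sterol reductase, also fell in clone 2.2, where it was the member with the largest change. It had 26.8, 34.5 and 23.2 CPM in WT, 23.1, 19.8 and 17.7 in clone 1.1, 15.2, 16.9 and 16.9 in clone 2.2, 18.5, 16.1 and 15.9 in clone 3.2, 17.4, 18.2 and 16.2 in clone 3.5 and 20.8, 22.2 and 20.4 CPM in clone 3.6. Relative to their mean, WT replicates of TM7SF2 differed more from each other than those of the genes above, and its log2 fold change in clone 2.2 was -0.79 (SE 0.103, adjusted p = 5.80e-08). HSD17B7, a sterol ketone reductase, was called in clones 1.1 and 3.5 (-0.62 and -0.65), and SC5D, the sterol desaturase, in clone 1.1 (-0.60).

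INSIG1 had the largest change of the 4 genes of regulation and transport in clones 1.1, 3.2, 3.5 and 3.6 and the smallest in clone 2.2. INSIG1 (chr7:155297776-155310235) had 550.2, 551 and 529.7 CPM in WT and 502, 521 and 512 CPM in clone 2.2. It had 305, 324 and 302 CPM in clone 1.1, 274, 273 and 267 in clone 3.2, 246, 246 and 236 in clone 3.5 and 225, 221 and 220.3 in clone 3.6. The clones were well separated from each other, clone 3.6 being lowest at a log2 fold change of -1.29 (SE 0.0332, adjusted p = 6.27e-27) and clone 2.2 at -0.09 (SE 0.0321, adjusted p = 0.0219), short of the threshold.

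SREBF2 (chr22:41833079-41907307), in contrast, stayed near WT. It had 342, 363 and 331 CPM in WT, 346, 366 and 348 in clone 1.1, 323, 312 and 327 in clone 2.2, 355, 339 and 357 in clone 3.2, 293, 305 and 309 in clone 3.5 and 354, 352 and 353 CPM in clone 3.6. The libraries of clones 2.2 and 3.5 lay below all of WT by little, and the log2 fold change in clone 3.5 was -0.19 (SE 0.0358). SREBF1 (chr17:17810399-17837002) was at 125, 132 and 115 CPM in WT and 113, 104 and 105 CPM in clone 2.2. The other clones had 189, 181 and 181 (1.1), 162, 155 and 154 (3.2), 135, 136 and 130.5 (3.5) and 136, 139 and 142 CPM (3.6). In clone 1.1 the log2 fold change of SREBF1 was 0.57 (SE 0.0419, adjusted p = 6.37e-14), just inside the limit on size, and it passed that limit with upper-quartile factors and without WT library A or B. STARD4, a carrier of cholesterol between membranes, was called in clone 3.5 (-0.73).

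The 6 fatty acid synthesis members were called in no clone but 3.6. There FASN, fatty acid synthase, had 846, 887 and 936 CPM against 1383, 1568 and 1426 CPM in WT, a log2 fold change of -0.71 (SE 0.0482, adjusted p = 3.35e-15). SCD, the stearoyl-CoA desaturase, had 1047, 1047 and 1033 CPM against 1628, 1677 and 1477 CPM in WT, at -0.61 (SE 0.0359, adjusted p = 7.49e-17). All KO libraries of both genes in this clone were below WT. In every clone SCD, FADS1 and FADS2 lay under the 3 WT libraries, in 15 of 15 KO libraries. Their fitted changes outside clone 3.6 stayed between -0.40 and -0.12. ACLY lay under all of WT in 12 KO libraries and over it in 3, FASN in 8 and 2, and ACACA in 3 and 12. The share of all genes placed in these ways was not counted. ACACA, which makes malonyl-CoA, and ACLY, which supplies cytosolic acetyl-CoA, had log2 fold changes from -0.25 (ACLY in clone 3.6) to 0.30 (ACACA in clone 3.2).

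**Figure D2:**
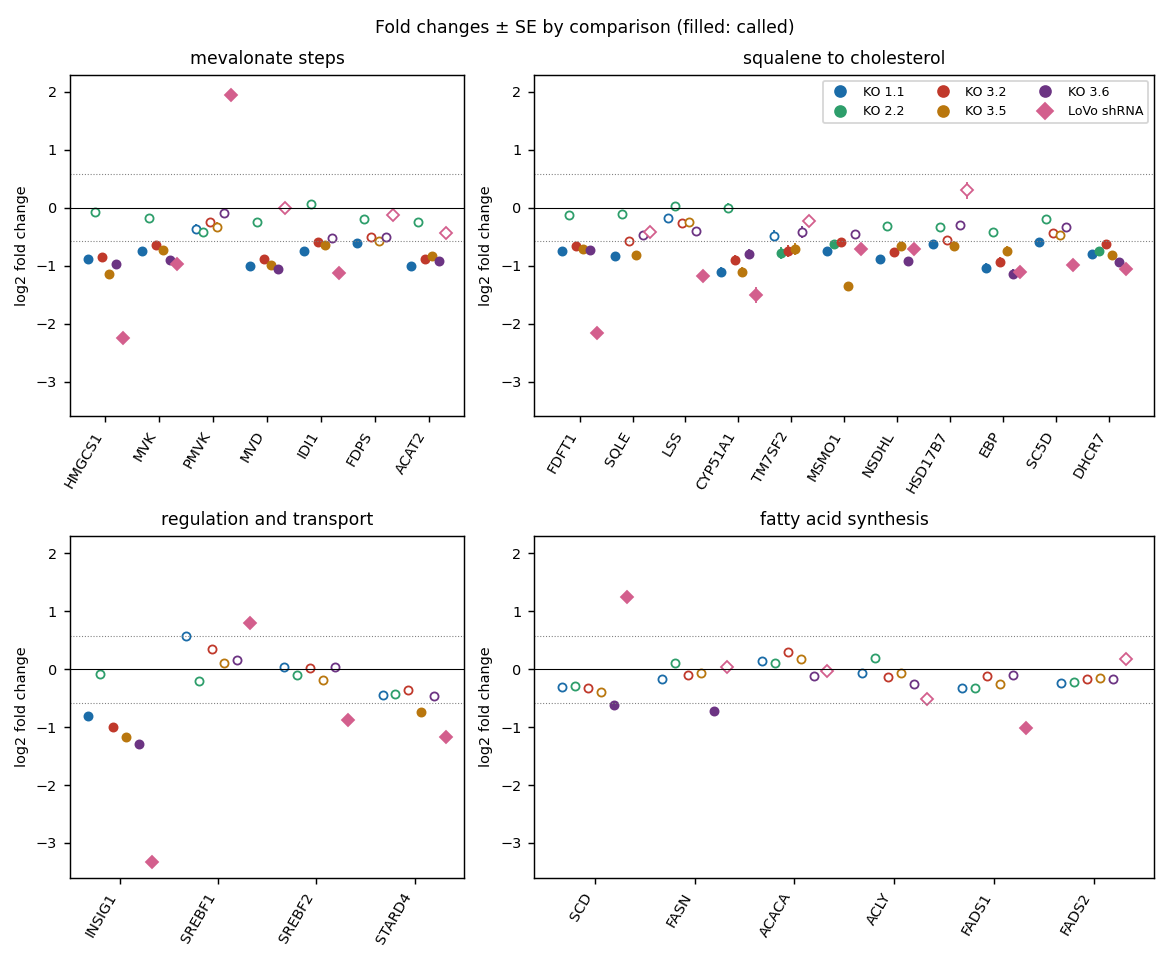
Log2 fold changes (vertical axis) of the members (horizontal axis) in the 5 clones against WT and in LoVo libraries labelled TWIST1 shRNA against the control, in 4 panels by role. Bars are standard errors, dotted lines the threshold of 0.58 in each direction, and filled symbols called values. For HMGCS1 clone 2.2 lies at -0.08 and the other clones between -0.86 and -1.14, and in the fatty acid panel only FASN and SCD of clone 3.6 are filled among the clones.

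**Figure D3:**
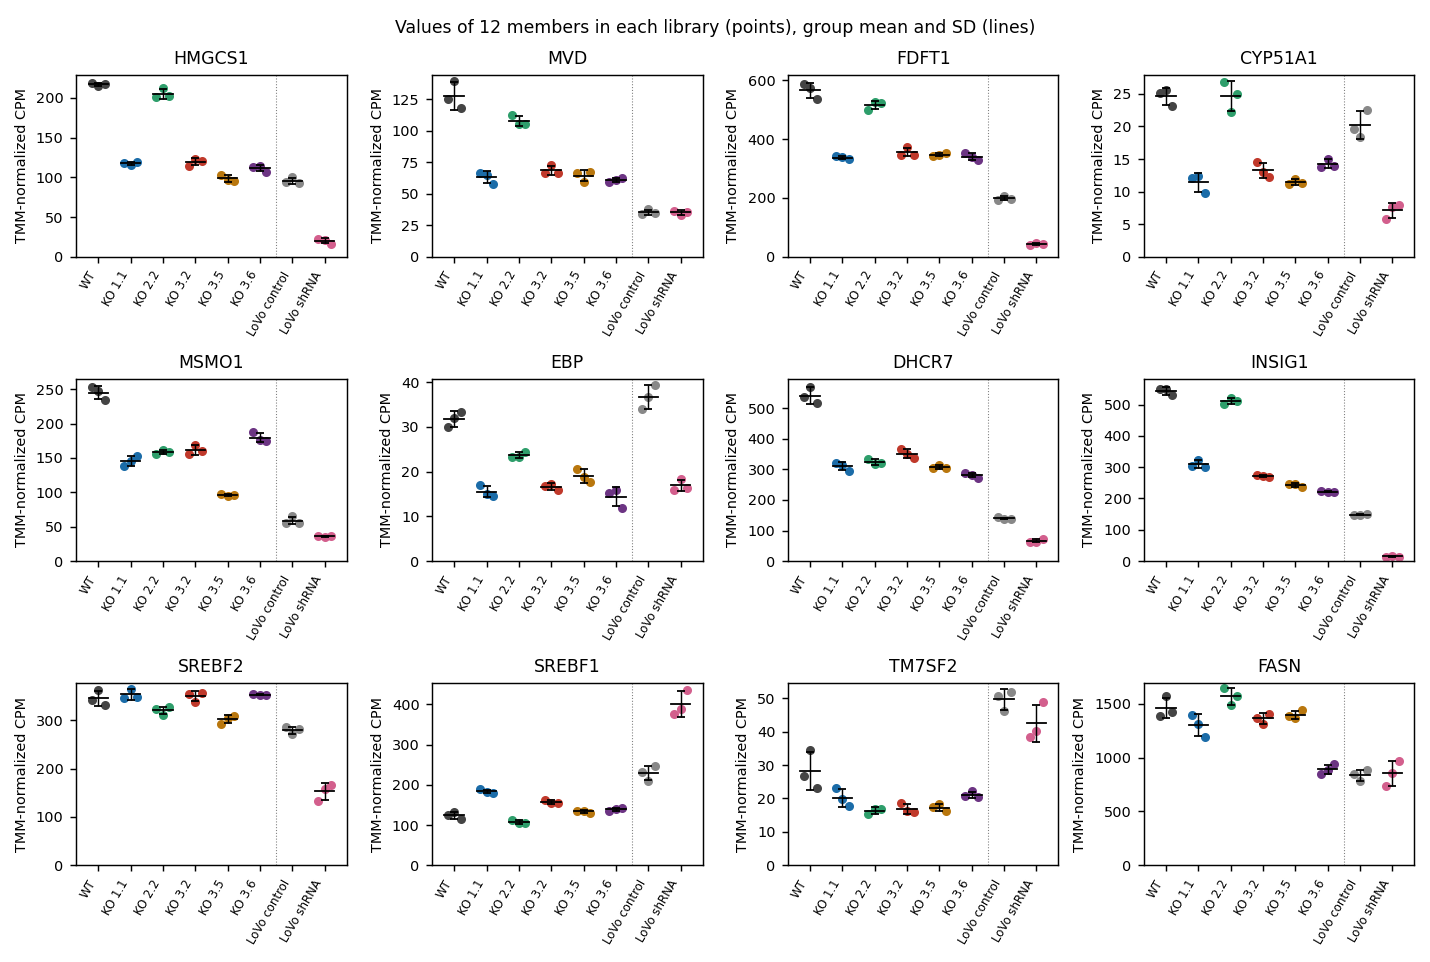
TMM-normalized CPM of 12 members in each library (points) with the mean (line) and SD (bar) of each group of 3. The vertical axes start at 0, and MDST8 and LoVo, parted by a dotted line, were scaled separately. HMGCS1, MVD, FDFT1, CYP51A1 and INSIG1 show clone 2.2 nearest to WT and the other clones well below, whereas all 5 clones of DHCR7 lie between 274 and 366 CPM.

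The clones also differed from each other without reference to WT. Over the 5 clones, 27 of 28 members differed in edgeR's F test, where 81% of all genes did, so the share is no mark of these genes, and FADS2 was the exception (adjusted p = 0.360).

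Clone 2.2 is the only clone labelled TG2, while clones 3.2, 3.5 and 3.6 are all labelled TG3. It was then set against the mean of the other 4 clones, a contrast chosen after the data had been seen. In it 8 members were called higher in clone 2.2 (4.14% of all genes were) and 0 lower (7.46% of all genes), with 11.6% of all genes called in either direction. Of the 8, 5 belong to the mevalonate steps: HMGCS1 (0.88), MVD (0.74), IDI1 (0.70), ACAT2 (0.67) and MVK (0.59), as log2 differences. The others were CYP51A1 (0.97) and FDFT1 (0.58) of the sterol steps and INSIG1 (0.98, SE 0.0244, adjusted p = 4.14e-27). The late sterol gene DHCR7 was not called in this contrast (0.06, SE 0.0305), nor was MSMO1 (0.16, SE 0.0317). In the same kind of contrast 1 member was called lower in clone 3.5, MSMO1 at -0.74 (2.86% of all genes, 3.52% higher and 6.38% in either direction), and 1 in clone 3.6, FASN at -0.66 (5.41% of all genes lower, 6.39% higher and 11.8% in either direction). Clones 1.1 and 3.2 had 0 members called in either direction by edgeR's quasi-likelihood test, where 2.5% and 2.35% of all genes were called up, 1.85% and 1.8% down, and 4.35% and 4.15% in either direction. TWIST1 itself was lowest in clone 2.2, at 553, 595 and 577 counts, and its part in this difference was not tested.

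**Figure D4:**
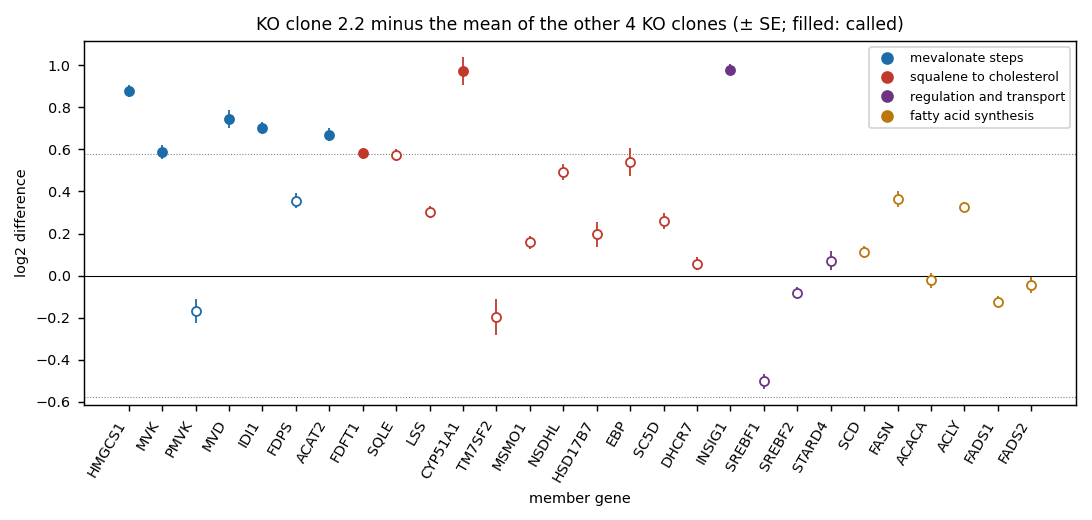
Log2 difference between clone 2.2 and the mean of the other 4 clones (vertical axis) for each member (horizontal axis, coloured by role), with standard errors as bars and the threshold of 0.58 in each direction as dotted lines. The 8 filled points, called members, lie above the upper line, with INSIG1 at 0.98 the highest, and no filled point lies below 0.

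In LoVo, the libraries labelled TWIST1 shRNA were compared with those labelled shRNA control. TWIST1 counts were higher under the TWIST1 shRNA label, so the comparison cannot say what reducing the factor does. Cholesterol synthesis genes were mostly lower under that label, INSIG1 by 10.03-fold, and 3 members rose. Of the 28 members, 15 were called down (53.6%, where 26.1% of all genes were) and 3 up (10.7%, where 26.6% were, and 52.7% in either direction), with a median log2 fold change of -0.71 and an all-gene median of 0.01. The called members were 3 down and 1 up of 7 in the mevalonate steps, 8 down of 11 in the sterol steps, 3 down and 1 up of 4 in regulation, and 1 down and 1 up of 6 in fatty acid synthesis. In these bulk samples fewer cells of a kind and less RNA per cell cannot be told apart.

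INSIG1 had 147, 148 and 151 CPM in control libraries A, B and C and 13.4, 16.6 and 14.5 CPM in libraries 1, 2 and 3 labelled TWIST1 shRNA, a log2 fold change of -3.33 (SE 0.0774, adjusted p = 7.74e-16). HMGCS1 went from 94.7, 99.8 and 92.5 to 22.6, 21.5 and 16.4 CPM, at -2.25 (SE 0.0939). FDFT1 went from 194, 207 and 196 to 41.9, 47.1 and 43.95 CPM, at -2.17 (SE 0.0645). In all 3 the groups were far apart, and these were the largest declines among the members.

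Among the sterol enzymes, CYP51A1 fell from 19.6, 18.4 and 22.6 to 5.79, 7.62 and 7.97 CPM (log2 -1.50, SE 0.134). EBP fell from 33.9, 36.6 and 39.4 to 15.96, 18.3 and 16.4 CPM (-1.12) and DHCR7 from 143, 139 and 137 to 63.9, 63.7 and 72.6 CPM (-1.06, SE 0.0648). None of these groups overlapped. MSMO1, with 55.2, 65.03 and 55.8 against 35.9, 35.2 and 36.3 CPM, and NSDHL, with 20.1, 20.05 and 20.1 against 12.6, 12.8 and 11.4 CPM, changed by -0.72 and -0.71. MVK fell from 26.5, 25.4 and 26.9 to 12.9, 13.4 and 14.01 CPM (-0.97), and LSS, IDI1, STARD4, FADS1 and SC5D fell by 1.18, 1.13, 1.18, 1.01 and 0.99 on the log2 scale. Other members did not pass. MVD, with 33.7, 37.7 and 34.95 against 36.6, 33.3 and 35.7 CPM, had a log2 fold change of -0.01 (SE 0.0771), ACAT2 with 22.8, 26.7 and 22.2 against 17.9, 17.5 and 17.9 CPM had -0.43, and TM7SF2 with 50.8, 46.1 and 51.9 against 38.5, 40.1 and 48.8 CPM had -0.22.

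The genes of the SREBP factors moved in opposite directions in LoVo. SREBF2 fell from 285, 271 and 281 to 134, 158 and 166 CPM (log2 -0.87, SE 0.0715, adjusted p = 8.67e-09). SREBF1 rose from 232, 211 and 246 to 377, 389 and 437 CPM (log2 0.81, SE 0.0704, adjusted p = 1.89e-08). SCD, a known target of SREBP1 and LXR, rose as well, from 183, 192 and 177 to 423, 447 and 443 CPM (1.25, SE 0.0573). The third member to rise was PMVK, from 6.65, 6.57 and 6.27 to 24.8, 24.7 and 25.2 CPM (1.94, SE 0.103), although its neighbours in the pathway, MVK and MVD, fell or did not pass. FASN, with 843, 780.1 and 879.7 against 733, 859 and 964 CPM, overlapped between groups. For any single gene an exact permutation test of 3 against 3 libraries cannot go below a two-sided p of 0.10, which all members without overlap reached.

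The LoVo effect was tested against the mean effect of the 5 MDST8 clones in a fit of all 24 libraries. It was called lower in LoVo for 10 members (25.2% of all genes were) and higher for 5 (26.7% of all genes, and 51.9% in either direction). INSIG1 differed most on the lower side (-2.48, SE 0.0634), followed by FDFT1 (-1.59) and HMGCS1 (-1.48). On the higher side were PMVK (2.21, SE 0.102), SCD (1.62), MVD (0.81), HSD17B7 (0.77) and SREBF1 (0.59). For MSMO1 the difference was 0.02 (SE 0.0703) and for NSDHL -0.02 (SE 0.0794), neither past the threshold. With the LoVo labels turned, a contrast added after the data had been seen, 20 members were called higher in LoVo (25.1% of all genes) and 3 lower (25.6%, and 50.7% in either direction). INSIG1 then differed by 4.20, FDFT1 by 2.76, HMGCS1 by 3.03, MSMO1 by 1.47 and NSDHL by 1.42, all called higher, while PMVK (-1.65), SCD (-0.86) and SREBF1 were called lower. The order and the split therefore hold only in the direction of the labels. Editing and hairpin, cell line and batch cannot be told apart in this comparison.

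The lines also differed in the levels of these genes, a difference in which cell line and batch cannot be told apart. MDST8 WT exceeded the LoVo control in 19 of 28 members (30.7% of all genes were called higher), all 7 of the mevalonate steps among them, and was lower in 2 (28.9% of all genes, and 59.6% in either direction). LSS was 10.9-fold higher in MDST8 (log2 3.45, SE 0.0462), ACAT2 8.53-fold and SCD 8.3-fold, while SREBF1 (-0.95) and TM7SF2 (-0.88) were lower. Against the LoVo libraries labelled TWIST1 shRNA instead, also added after the data had been seen, 24 members were higher in MDST8 WT (27% of all genes) and 2 lower (27.1%, and 54.1% in either direction). There LSS was 24.9-fold, ACAT2 11.6-fold and SCD 3.51-fold higher, and PMVK did not pass at 0.21 on the log2 scale. Per exon length, in RPKM (CPM divided by exon length in kilobases), SCD led in WT at 299.7 ± 19.2 (SD, n = 3). FASN followed at 154 ± 10.3 and did not differ beyond the spread from INSIG1 at 147 ± 3.02. ACLY (108 ± 3.33) and FDFT1 (107 ± 4.89) came next, not apart by their spread, and LSS, MSMO1, ACAT2 and DHCR7 lay from 77.7 to 85.03 RPKM, each within the spread of its neighbour. The lowest were HSD17B7 (6.5 ± 0.537), FADS2 (6.33 ± 0.270) and CYP51A1 (5.82 ± 0.295), also not apart. In the LoVo control FASN led (92.1 ± 5.31), then ACLY (72.1 ± 1.29) and INSIG1 (41.9 ± 0.699), and SCD came after SREBF2 at 36.1 ± 1.54. HSD17B7 (1.69 ± 0.230) and FADS2 (1.39 ± 0.0892) were the lowest there.

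**Figure D5:**
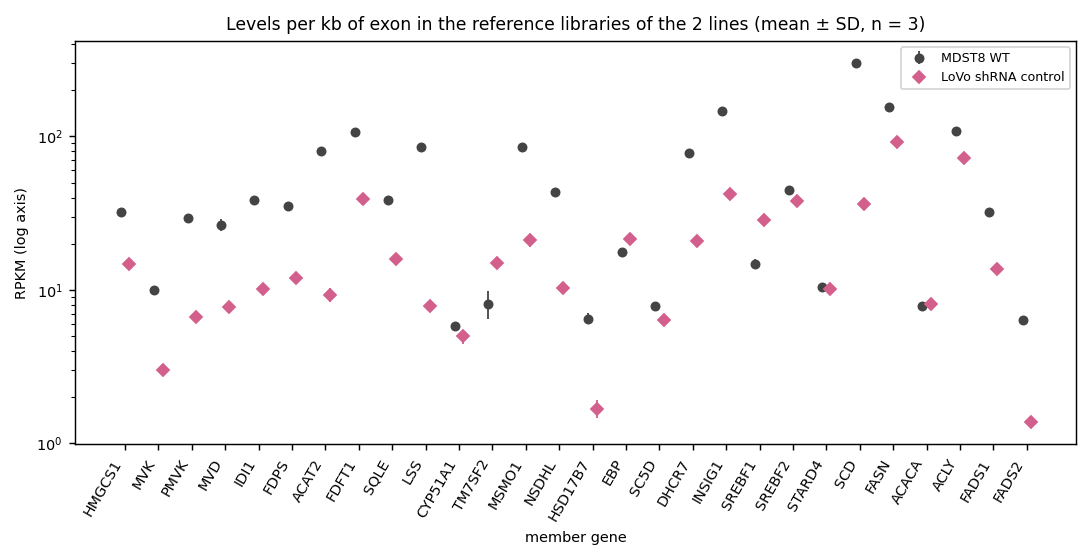
Level per exon length of each member (RPKM, log axis) in MDST8 WT and LoVo shRNA control libraries, as mean and SD of 3 libraries. SCD, LSS and ACAT2 show the widest gaps between the lines, and SREBF1 and TM7SF2 are higher in LoVo.

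Beside the members, 60 further genes of sterol and lipid metabolism were listed, of which 49 were tested in MDST8 and 54 in LoVo. They were called in both directions, with 7 up and 7 down in clone 1.1, 1 and 2 in clone 2.2, 5 and 6 in clone 3.2, 5 and 7 in clone 3.5, 5 and 7 in clone 3.6, and 11 and 15 in LoVo. As shares these are 14.3% up and 14.3% down in clone 1.1 (12% and 7.49% of all genes), 2.04% and 4.08% in clone 2.2 (8.05% and 6.64%), 10.2% and 12.2% in clone 3.2 (10.9% and 6.09%), 10.2% and 14.3% in clone 3.5 (11.2% and 7.25%), 10.2% and 14.3% in clone 3.6 (15.3% and 11.7%), and 20.4% and 27.8% in LoVo (26.6% and 26.1%). The shares called up thus lay near or below those of all genes, and the counts of the sublists that follow are a description read against the same shares. Of 9 further sterol genes tested, 4, 1, 3, 4 and 4 were called down in the clones and 3 in LoVo. In the same list 1, 0, 1, 1 and 2 were called up in the clones and 0 in LoVo. Of 8 tested LXR targets and efflux genes, 3, 1, 2, 3 and 2 were called up in the clones and 3 in LoVo, and 1, 0, 0, 0 and 1 down with 1 in LoVo. Of 13 tested genes of SREBP handling and sterol uptake, 2, 0, 1, 1 and 1 were called down and 1, 0, 1, 0 and 0 up, and in LoVo 4 down and 2 up of 14. Of 19 further fatty acid and lipid genes, 0, 1, 2, 2 and 1 were called down and 2, 0, 1, 1 and 1 up, and in LoVo 7 down and 6 up of 23. MYLIP was called up in all 5 clones and in LoVo. It had 0.80, 0.813 and 1.32 CPM in WT, from only 15, 16 and 26 counts. It had 5.64, 4.88 and 7.58 CPM in clone 1.1, 2.06, 1.95 and 2.06 in clone 2.2, 4.68, 4.39 and 4.18 in clone 3.2, 3.53, 2.86 and 3.19 in clone 3.5 and 3.6, 4.19 and 3.31 in clone 3.6. Every KO library was above WT, clone 2.2 least so, and the log2 fold change ran from 1.04 (SE 0.255, adjusted p = 0.000767) to 2.61 (SE 0.219). In LoVo it rose from 7.25, 7.9 and 9.19 to 15.4, 16.2 and 17.3 CPM (1.01, SE 0.122).

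FAXDC2, a member of the fatty acid hydroxylase family, had 2.99, 2.9 and 3.15 CPM in WT. It was called up in all clones but 2.2, most in clone 3.6 at a log2 fold change of 2.15 (SE 0.134). In clone 2.2 its log2 fold change of 0.43 was not called. COQ2, which uses isoprenoids for ubiquinone, had 23.3, 22.96 and 21.3 CPM in WT and 7.98, 7.55 and 8.99 CPM in clone 2.2, where it fell by 1.46 on the log2 scale. COQ2 was also called down in clones 1.1, 3.5 and 3.6, and in clone 3.2 its log2 fold change of -0.57 missed the threshold. In LoVo ABCA1, an LXR-driven cholesterol pump, had 6, 4 and 0 counts in the control and 188, 173 and 164 counts under the TWIST1 shRNA label, and its fitted log2 fold change of 5.67 depends on the prior count.

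TWIST1 ChIP-seq peaks were counted within 3000 bp of the outermost upstream exon end of each gene in the count tables. This end is not always the RefSeq start used for the promoter letters above. For FADS1 it was chr11:61829318, while the RefSeq window was chr11:61816954-61817253. Every RefSeq window of FADS1, FADS2, ACLY and DHCR7 lay further than 3000 bp from this end. A listed peak was found at 22 of 28 members in MDST8 (78.6%, against 76.5% of all genes tested) and at 20 of 28 in LoVo (71.4%, against 58.2%). Both lines had one at 14 members (45.1% of genes tested in both), and no member lacked one in both. The lists are long, at 338877 and 333621 peaks, and come from 1 ChIP library a line with no replicate. Of the members, 9 in MDST8 (28.3% of all genes) and 5 in LoVo (18.8%) kept a peak at p of at most 0.001, and 0 in either line at q of at most 0.05 (0.642% and 0.350% of all genes). The lowest p at a member was 8.08e-05 at SQLE in MDST8 (q = 0.303), followed by 9.68e-05 at DHCR7 (q = 0.339), and in LoVo 0.00014 at TM7SF2 (q = 0.427). INSIG1 had 2 listed peaks in MDST8 and HMGCS1 had 1. No listed peak in MDST8 lay within 3000 bp of the outermost upstream exon end of SREBF2, MVK, ACAT2, FDFT1, STARD4 or FADS1. For FADS1 this does not cover the RefSeq promoter.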

How the data were processed

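RNA-seq was read from 2 tables of gene counts, 1 for MDST8 and 1 for LoVo, and TWIST1 binding from 1 peak list a line. According to the submitters' processing notes, the authors trimmed with Trim Galore 0.6.6, aligned RNA-seq reads with HISAT2 2.1.0 to hg38 and ChIP-seq reads with Bowtie2 2.4.5, and used SAMtools 1.6, featureCounts 2.0.0 and MACS2 2.2.7.1. The deposited counts are raw whole reads per GENCODE gene, counted without strand, so overlapping genes cannot be separated. The authors deposited exon lengths and other annotation columns beside them. The deposited peak lists hold the fold enrichment (a ratio), −log10 p-value and −log10 q-value and the score of each peak, as MACS2 wrote them.

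Of 62703 gene identifiers, 62639 had a symbol in GENCODE, through which members were found. Genes were kept where the geometric mean of RPM + 1, less 1, was at least 1, which left 13706 in MDST8, 14270 in LoVo and 12132 in both. Libraries were scaled by TMM within each line. Levels in CPM come from this scaling, and RPKM from the fit of all 24 libraries. edgeR 4.0.16 (glmQLFit and glmQLFTest, R 4.3.3) was fitted to all genes, with all groups of a line sharing the estimate of spread, and p-values were adjusted by Benjamini-Hochberg over all genes tested. Calls needed a change beyond 0.58 on the log2 scale, either way, with an adjusted p under 0.05. The scripts were tested on simulated data. limma 3.58.1, DESeq2 1.42.0, other filters and factors, and leaving out each library were the alternatives. No value column was left unmatched (0).

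The members, pathway lists and markers were chosen with earlier results of these data known. Per-library values are given for members called the same way in at least 4 of 5 clones, the 3 members with the largest called change in each comparison, and INSIG1, SREBF1 and SREBF2. FASN, SCD and PMVK were named with values after these had been seen. Total counts of 16567606 to 22217009 a library limit precision for the lowest genes, and floors cover counting error only. The value of 1 gene of the pathway lists that the rule would name is not reported here.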

Additional observations from a re-analysis of the deposited data

Results flagged for a closer look

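For 15 of 28 members the difference between the LoVo effect, in the direction of the labels, and the mean effect of the MDST8 clones was itself past the threshold. Of all genes tested 51.9% were called in this contrast (25.2% lower and 26.7% higher), so the number is no mark of the members. As log2 differences by edgeR's quasi-likelihood test these were -2.48 for INSIG1, -1.59 for FDFT1, -1.48 for HMGCS1, -0.99 for LSS, -0.85 for SREBF2, -0.80 for FADS1, -0.74 for CYP51A1, -0.71 for STARD4, -0.66 for IDI1 and -0.60 for SC5D, and 2.21 for PMVK, 1.62 for SCD, 0.81 for MVD, 0.77 for HSD17B7 and 0.59 for SREBF1. TWIST1 counts run against the LoVo labels, so these values and their number hold only in the direction of the labels. With the labels turned, 20 members were called higher (25.1% of all genes) and 3 lower (25.6%).

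For 10 members, 1 clone differed from the mean of the other 4. Clone 2.2 was higher by 0.98 for INSIG1, 0.97 for CYP51A1, 0.88 for HMGCS1, 0.74 for MVD, 0.70 for IDI1, 0.67 for ACAT2, 0.59 for MVK and 0.58 for FDFT1, all as log2 differences. Clone 3.5 was at -0.74 for MSMO1 and clone 3.6 at -0.66 for FASN. Of all genes, 4.14% were called higher in clone 2.2, 2.86% lower in clone 3.5 and 5.41% lower in clone 3.6.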

How the results depend on the processing

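Of 1134 recomputed values of single members that were called as reported, 1108 kept their direction and their side of the threshold, 26 in 9 members missed it at log2 fold changes of -0.48 to -0.58, and 0 reversed. Of 1330 recomputed values that were not called, 14 passed in an alternative, at 0.58 to 0.63 in size, for 5 members (SREBF1 and TM7SF2 in clone 1.1, HSD17B7 and SQLE in clone 3.2, FDPS in clone 3.5). Of 230 recomputed counts of members, 219 stayed within 1.5 times. Members called up in clone 1.1 became 1 (SREBF1) with upper-quartile factors and with limma on log2(count + 1), and ranged from 0 to 1 on leaving out each library, being 1 without WT library A or B. Members with a listed peak fell to 9 in MDST8 and 5 in LoVo at p of at most 0.001, to 0 in both at q of at most 0.05, and to 13 in LoVo within 1000 bp, settings that by construction keep fewer peaks. Without library size normalization (limma on log2(count + 1)) the median of all genes in clone 3.6 shifted by 0.12, and the split of genes called up and down became 2687 and 1098 from 2099 and 1605. In clone 3.2 it became 1763 and 611 from 1491 and 835, and in clone 3.5 1291 and 1224 from 1541 and 994. With the LoVo labels turned, an alternative added after the data had been seen, the members whose effect differed between the lines became 20 higher and 3 lower in LoVo. With the replicate letter as a block, the members called down stayed at 16, 3, 13, 16 and 12. Clone 3.2 moved most in the other settings. Its 13 members called down ranged from 9 to 13 over the alternatives and from 10 to 15 on leaving out each library. The letters share only a name, since deviations of same-letter libraries correlated at -0.106 to 0.120 and 3 of 18 libraries were closest to their own letter. In LoVo no paired analysis was possible because the groups carry letters in one and numbers in the other. The LoVo counts of 15 down and 3 up were the same without each library, including the one with the most mitochondrial reads. That step cannot test the part of these reads. The remaining libraries labelled TWIST1 shRNA, at 6.24 and 5.47%, still exceeded every control library, at 3.49 to 3.96%.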
